A study of Mus musculus with 32 samples.

Results

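GATA3 occupancy was compared between 2 mouse cell lines by ChIP-seq, with 2 libraries per line. Scid.adh.2c2 resembles T-cell progenitors before receptor rearrangement and was grown, per the labels, in a medium listed with no cytokine. ILC2/b6 is a cultured line of innate lymphocytes of type 2 and received IL-33, IL-2 and IL-7, each at 10 ng/ml. The GATA3 libraries are labelled with no guide and with a mixture of antibodies against GATA3. The labels hold input libraries of both DSG and FA kinds, and which fixation the GATA3 libraries had is not stated. Each cell type is thus represented by 1 line. All peaks of both deposited GATA3 lists were taken, 36973 in Scid.adh.2c2 and 33709 in ILC2/b6, together 70682 of the 215616 peaks in the 8 lists of the study. A peak was called shared where it overlapped a peak of the other list by at least 1 bp. The remaining lists hold Bcl11b, Runx1 and Runx3 peaks of the same lines. Levels of mRNA come from 8 RNA-seq libraries, 2 per line transduced with a control guide and 2 per line with a guide against Bcl11b; the smallest held 34.7 and the largest 43.7 Mreads, read from the steps of the values. Of 10 T-cell marker genes, 9 reached 1 RPKM (reads per kilobase of transcript, scaled to the library's size) in Scid.adh.2c2 and 1 did in ILC2/b6. Of 10 ILC2 marker genes, 10 reached it in ILC2/b6 and 4 in Scid.adh.2c2. B-cell markers were below 1 RPKM in both lines, and of 6 mast-cell markers 1 reached it in Scid.adh.2c2 and 3 in ILC2/b6.

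GATA3 is a zinc finger transcription factor that binds DNA through the core GATA. In the thymus it is needed for T-lineage entry and for CD4 T cells, and in ILC2 it is needed for development and for production of IL-5 and IL-13. It acts mostly at enhancers, often beside Runx factors, and it binds enhancers of its own gene.

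Promoters are shown first for example genes: 1 whose start site was occupied in both lines, 2 occupied in Scid.adh.2c2 only and 1 occupied in ILC2/b6 only. The windows are RefSeq promoters of build GRCm38.p6, 250 bases before to 50 bases after the start, written 5′ to 3′ on the strand of the gene. The peaks are on mm9, so windows were matched by gene and by the peak's distance to the start, which may differ between annotations. Capitals mark the motif AGATAA, the motif TGATAA, the motif AGATAG and the motif TGATAG on either strand. Windows of other genes with a peak there are not printed, among them that of Gzma (Scid.adh.2c2 only, score 57.0), which held 0 motifs. Il9r encodes the IL-9 receptor (chr11:32200230-32200529, minus strand). Its promoter peak scored 229.2 in Scid.adh.2c2 and 198.3 in ILC2/b6.
Il9r: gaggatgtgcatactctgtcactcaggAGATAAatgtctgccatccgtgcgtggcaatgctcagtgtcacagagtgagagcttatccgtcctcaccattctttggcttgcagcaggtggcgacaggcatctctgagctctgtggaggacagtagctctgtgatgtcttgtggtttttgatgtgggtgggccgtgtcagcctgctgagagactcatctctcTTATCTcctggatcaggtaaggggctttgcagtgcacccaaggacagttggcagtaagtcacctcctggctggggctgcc
Rag1, a subunit of the recombinase of antigen receptor genes (chr2:101649483-101649782, minus strand), had a promoter peak of score 52.3 in Scid.adh.2c2 only.
Rag1: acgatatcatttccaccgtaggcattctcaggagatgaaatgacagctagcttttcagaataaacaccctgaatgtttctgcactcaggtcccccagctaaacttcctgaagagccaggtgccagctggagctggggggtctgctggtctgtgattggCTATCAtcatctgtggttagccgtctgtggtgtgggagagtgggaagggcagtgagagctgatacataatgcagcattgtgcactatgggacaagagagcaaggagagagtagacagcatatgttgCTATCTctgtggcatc
Il13, the type 2 cytokine IL-13 (chr11:53634653-53634952, minus strand), had a promoter peak of score 87.2 in Scid.adh.2c2 only.
Il13: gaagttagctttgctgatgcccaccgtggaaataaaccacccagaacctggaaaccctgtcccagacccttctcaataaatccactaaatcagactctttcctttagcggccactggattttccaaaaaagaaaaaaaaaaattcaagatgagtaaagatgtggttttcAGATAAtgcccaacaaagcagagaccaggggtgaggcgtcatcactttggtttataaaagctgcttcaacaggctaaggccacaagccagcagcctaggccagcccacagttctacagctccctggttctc
Batf, an AP-1 family factor of lymphocytes (chr12:85686470-85686769, plus strand), had a promoter peak of score 22.6 in ILC2/b6 only.
Batf: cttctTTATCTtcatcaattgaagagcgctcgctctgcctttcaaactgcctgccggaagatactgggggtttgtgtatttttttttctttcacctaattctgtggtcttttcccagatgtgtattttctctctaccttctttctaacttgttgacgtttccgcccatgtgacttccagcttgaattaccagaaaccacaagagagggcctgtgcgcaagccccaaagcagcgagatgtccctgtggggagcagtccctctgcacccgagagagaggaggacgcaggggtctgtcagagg
Over genes with 1 RefSeq window, any of these motifs stood in 30.7% of 22862 windows. Where the centre of a GATA3 peak lay in the window, a motif stood in 50.3% of 145 windows of shared peaks, 50.0% of 26 windows of Scid.adh.2c2-only peaks and 59.7% of 144 windows of ILC2/b6-only peaks. These are matches of letters in a window of fixed length, not bound sites.

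The first question was how far the same sites were occupied in both lines. Shared sites numbered 17477, which is 47.3% of the Scid.adh.2c2 list and 51.8% of the ILC2/b6 list. There were 19496 Scid.adh.2c2-only and 16232 ILC2/b6-only peaks. Each list was made from both replicate libraries, so no peak can be checked between replicates and no peak count carries a test. Intervals given for shares are 95% Wilson intervals and cover counting error only. Few peaks missed the other list narrowly, since 1.65% of Scid.adh.2c2-only and 2.56% of ILC2/b6-only peaks lay within 500 bp of a peak of the other line.

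Strong sites were shared more often, and more steeply so in Scid.adh.2c2. The authors' peak score, used here only to rank peaks within a list, had a median of 31.2 at shared and 20.7 at Scid.adh.2c2-only sites in that list. In the ILC2/b6 list the medians were 27.1 at shared and 24.3 at ILC2/b6-only sites. The lowest-scoring peaks of both lists had the same score. From the highest to the lowest score decile, the shared share fell from 73.4% to 21.9% in Scid.adh.2c2 and from 62.8% to 44.9% in ILC2/b6. Of the 1000 highest peaks, 784 were shared in Scid.adh.2c2 and 722 in ILC2/b6. Across the 17477 shared sites the scores of the lines had a Spearman rho of 0.46, a description over sites that share their libraries.

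GATA3 sites lay mostly away from promoters, and those of ILC2/b6 lay closer to start sites. Promoter-TSS peaks were 2.70% of the Scid.adh.2c2 list and 4.09% of the ILC2/b6 list. The lists of the other factors held between 19.0% and 39.9% promoter peaks, and for each of them the share was higher in Scid.adh.2c2 than in ILC2/b6, the reverse of GATA3. By class, promoters held 756 shared peaks (4.33%, interval 4.03 to 4.64), 244 Scid.adh.2c2-only peaks (1.25%) and 623 ILC2/b6-only peaks (3.84%). The median distance to the nearest start site was 24.5 kb for shared, 44.2 kb for Scid.adh.2c2-only and 23.9 kb for ILC2/b6-only peaks. Beyond 100 kb lay 19.0%, 30.7% and 17.5% of these classes. Intergenic sites made up 57.8% of Scid.adh.2c2-only and 42.1% of ILC2/b6-only peaks, and introns held 38.2% and 50.2%.

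**Figure D1:**
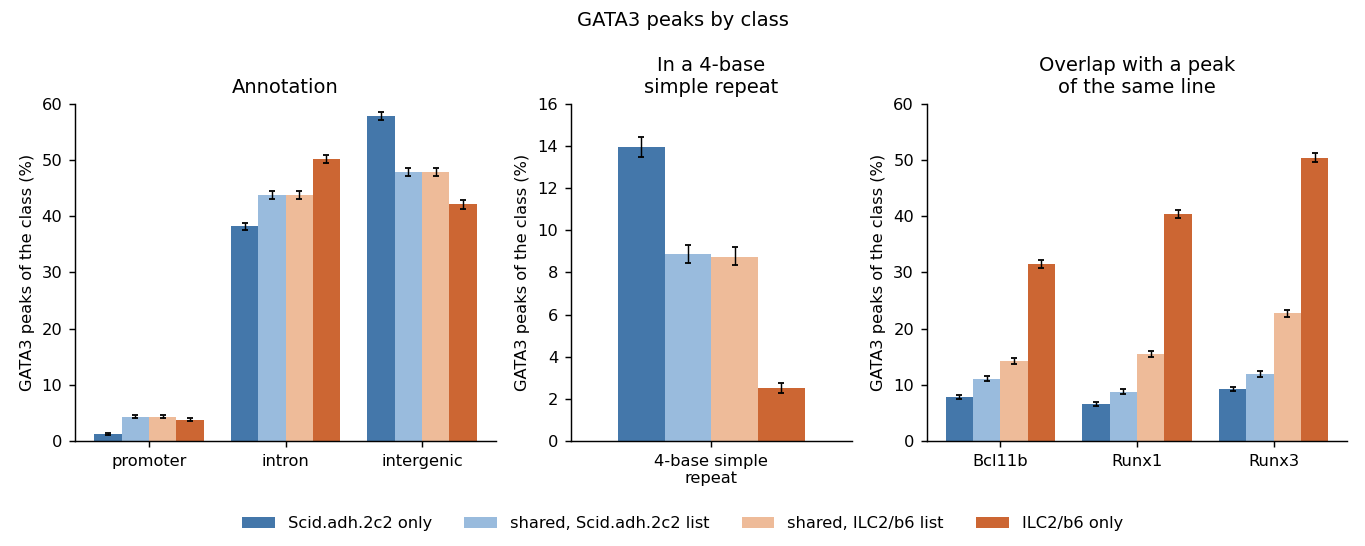
Shares of GATA3 peaks (percent of a class) by annotation, in a 4-base simple repeat made of the units TAGA or TCTA, and overlapping a Bcl11b, Runx1 or Runx3 peak of the same line. Bars are peak classes and whiskers are 95% Wilson intervals. Scid.adh.2c2-only peaks lead in intergenic and repeat shares, and ILC2/b6-only peaks lead in overlap, with 50.4% at Runx3 peaks.

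A simple repeat also separated the lists. The files placed 4266 Scid.adh.2c2 peaks (11.5%) and 1939 ILC2/b6 peaks (5.75%) in repeats of TAGA or TCTA. These units are the GATA repeat read from another base and its reverse complement, so such a tract holds the core GATA in series. They took 13.9% of Scid.adh.2c2-only peaks (2719), 8.85% of shared peaks (1547) and 2.52% of ILC2/b6-only peaks (409). In the Bcl11b, Runx1 and Runx3 lists of both lines between 0 and 29 peaks fell in them, at most 0.111% of a list. The files give such a label only to peaks outside promoters, exons and gene ends, so lists with many promoter peaks have fewer peaks that could carry it. Repeat peaks of Scid.adh.2c2 only lay a median of 73.9 kb from a start, and 0.0736% of them overlapped a Runx3 peak. Their median score was 20.2, beside 20.7 for the other Scid.adh.2c2-only peaks, while the highest reached 992.1 in an intron of Phex, a gene of phosphate balance. How reads of 50 nt were placed in such tracts was not tested. Outside such repeats, the median distances to a start were 23.1 kb for shared, 40.8 kb for Scid.adh.2c2-only and 23.6 kb for ILC2/b6-only peaks.

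Overlap with Runx3, Runx1 and Bcl11b peaks was more frequent at ILC2/b6-only sites than in the other classes. At least 1 of the 3 factors had a peak of the same line at 8978 ILC2/b6-only sites (55.3%) and at 2142 of 19496 Scid.adh.2c2-only sites. Runx factors bind their own motif and take part in both T-cell and innate lymphoid programmes, and Bcl11b is a zinc finger factor of T-cell commitment that ILC2 also need. A Runx3 peak of the same line overlapped 50.4% of ILC2/b6-only peaks (interval 49.6 to 51.2), against 9.25% of Scid.adh.2c2-only peaks (8.85 to 9.66). Of the 17477 shared sites, 2091 overlapped a Runx3 peak in Scid.adh.2c2 and 3969 (22.7%) did in ILC2/b6. For Runx1 the shares were 40.4% of ILC2/b6-only and 6.65% of Scid.adh.2c2-only peaks, and for Bcl11b 31.5% and 7.78%. The partner lists themselves differ in length, with 44938 Runx3, 26258 Runx1 and 21677 Bcl11b peaks in ILC2/b6 and 20523, 13664 and 17874 in Scid.adh.2c2. With the control guide, Runx3 mRNA stood at 3.07 and 3.28 RPKM in Scid.adh.2c2 and at 46.5 and 42.9 RPKM in ILC2/b6, while Runx1 was 19.4 and 21.3 against 2.73 and 3.09 RPKM. The part of these differences in the overlaps was not tested.

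The overlap followed peak strength in both lines. Among Scid.adh.2c2-only peaks, a Runx3 peak was present at 54.6% of the 984 in the highest score decile and at 2.87% in the lowest. Among ILC2/b6-only peaks it was present at 84.9% and 26.7%. The highest decile of Scid.adh.2c2-only peaks also held few repeat sites, 2.85%, against 13.4% in the lowest.

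**Figure D2:**
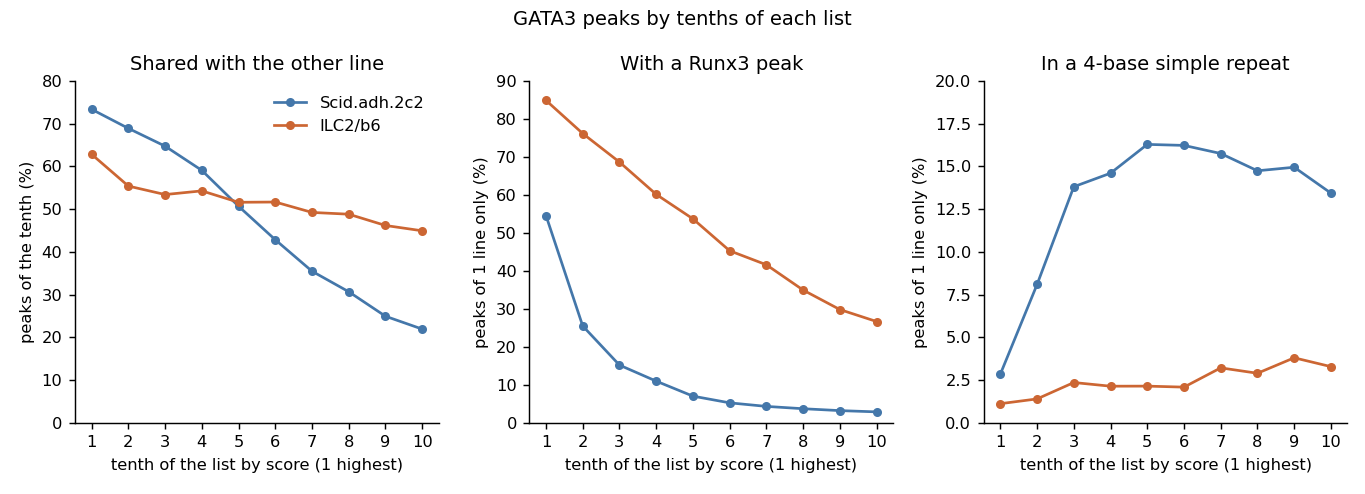
Deciles of each GATA3 list by score, 1 the highest (x), against the percent of peaks shared, and, among peaks of 1 line only, the percent with a Runx3 peak of that line and the percent in a 4-base simple repeat (TAGA or TCTA units). Blue is Scid.adh.2c2 and orange ILC2/b6. Runx3 overlap falls from 54.6% to 2.87% in Scid.adh.2c2 and from 84.9% to 26.7% in ILC2/b6.

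Chromosomes 1 and 15 carried more of the Scid.adh.2c2 list. Chromosome 15 held 2223 Scid.adh.2c2 peaks (6.01% of the list) and 1394 ILC2/b6 peaks (4.14%), and chromosome 1 held 3392 (9.17%) and 2497 (7.41%). On the other 18 chromosomes the ratio of peak numbers lay between 0.953 and 1.25. The other factors differed less on chromosome 15, with 4.97% and 4.48% of Bcl11b peaks and 4.65% and 4.25% of Runx3 peaks. On chromosome 1 they were 6.85% and 6.65% for Bcl11b and 6.96% and 6.81% for Runx3. Copy number in these lines was not tested.

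The highest-scoring sites were of several kinds. The highest site of both lists, in intergenic sequence nearest to N6amt1, a methyltransferase gene (chr16:86821137-86821453, mm9), scored 7200.2 and 4427.8, and none of the other 6 lists had a peak there. A shared peak in Rn45s, the ribosomal RNA precursor, scored 1277.4 in ILC2/b6. Copies of ribosomal RNA annotated as repeats lay under peaks in introns of Txndc11, Gnb1l and Filip1l, and in all under 2 shared, 8 Scid.adh.2c2-only and 9 ILC2/b6-only peaks. Other high shared peaks overlapped partner peaks, among them those near Rgs2, a regulator of G-protein signalling (858.5 in Scid.adh.2c2), and nearest to Grb7 (749.1), where all 6 other lists had a peak. The peak in an intron of Tdrd1 (2157.7 in ILC2/b6) overlapped peaks of 4 other lists. Sfi1, a centrosome gene, held the highest ILC2/b6-only peaks, scoring 1086.0 and 528.9. Both lay in an intron in sequence annotated as repeats, an LTR element and a SINE, and how reads were placed there was not tested. The highest Scid.adh.2c2-only site (chr15:63087250-63087566, mm9) scored 1251.1, and Bcl11b, Runx1 and Runx3 peaks of Scid.adh.2c2 overlapped it. Its nearest gene was Gm20740, and it lay 1271 kb downstream of the start of Myc, a growth regulator. A distal Myc enhancer that responds to Notch signals in T-cell leukaemia is known in this stretch of the mouse genome. Within 2000 kb downstream of Myc there were 38 shared, 76 Scid.adh.2c2-only and 34 ILC2/b6-only peaks. The whole of chromosome 15 had a similar balance of line-only peaks, with 808 shared, 1415 Scid.adh.2c2-only and 586 ILC2/b6-only. Myc mRNA was 181.3 and 180.6 RPKM in Scid.adh.2c2 and 111.7 and 106.9 RPKM in ILC2/b6.

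Peaks were spread unevenly over genes. Assigned to the nearest start site as the files give it, the Scid.adh.2c2 peaks fell to 13248 genes with a mean of 2.79 peaks each and the ILC2/b6 peaks to 12304 genes with 2.74 each. Genes with 10 or more peaks numbered 495 and 457 and took 21.0% and 20.1% of the lists. Efna5, an ephrin ligand, had the most Scid.adh.2c2-only peaks, 61, beside 4 shared and 0 ILC2/b6-only peaks, and its mRNA was 0.018 and 0.011 RPKM in Scid.adh.2c2. Gm20740 had 47, Pcdh9 44, Cntn5 42, Thsd7b 40, Cdh9 35, Nr2f2 34, Cd55b 33, Prox1 32 and 4930556G01Rik 31. Of these 10 genes, 3 (Thsd7b, Nr2f2 and Prox1) reached a mean of 1 RPKM in Scid.adh.2c2 and 7 reached it in neither line. Prox1, a homeobox factor, had 9.96 and 12.4 RPKM in Scid.adh.2c2 and 0.023 and 0.021 RPKM in ILC2/b6.

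The corresponding ranking of ILC2/b6 held expressed genes. Inpp4b, a phosphoinositide phosphatase, had 44 ILC2/b6-only peaks and 0 others, with 7.29 and 8.13 RPKM in ILC2/b6 and 0.010 and 0 RPKM in Scid.adh.2c2. Acvr2a followed with 39, Mir6388 with 38, 1700061F12Rik with 36, B3galt2 with 31, Maf with 30, Fam46a with 27 and Brinp3, Clnk and H2afy3 with 26 each. Of these 10 genes, 8 reached 1 RPKM in ILC2/b6 and 0 in Scid.adh.2c2, and Mir6388 and H2afy3 reached it in neither line. In Clnk, an adaptor of immunoreceptor signalling, 15 of the 26 overlapped a Runx3 peak, near the 50.4% of all ILC2/b6-only peaks. Shared peaks were most numerous at 1700061F12Rik (37), Mgat5 (22), Hrh1 (20) and C130030K03Rik (18).

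Next, control mRNA levels were set beside the peaks of each gene. The RPKM tables of the lines were made apart, so these are descriptions without a test. Some broadly expressed genes are listed low in Scid.adh.2c2, among them Gnas (0.540 and 0.480 against 403.8 and 405.1 RPKM) and Tmsb4x (12.6 and 9.83 against 8777 and 8693 RPKM), while Eef1a1 (4237 and 4097 against 4512 and 4553 RPKM) was alike in both lines. Whether such low values are true levels or come from how reads were assigned was not tested, and this doubt touches every level set between the lines. A gene counted as higher in a line at a 4-fold difference on log2(RPKM + 0.5) with both control libraries of that line above both of the other. Of 10777 genes with a mean of at least 1 RPKM over the 4 libraries, 1332 (12.4%) were higher in ILC2/b6 and 585 (5.43%) in Scid.adh.2c2. For 461 of the 10777 the lines were listed with a different transcript or transcript length, which makes their levels less comparable. Among them are Runx1, Runx2, Tcf12, Ahr and Meis1. Among genes with peaks in the ILC2/b6 list only, 259 of 1162 (22.3%) were higher in ILC2/b6 and 21 (1.81%) in Scid.adh.2c2. Among genes with peaks in the Scid.adh.2c2 list only, 140 of 867 (16.1%) were higher in Scid.adh.2c2 and 53 (6.11%) in ILC2/b6. At a 2-fold mark the totals were 2017 higher in ILC2/b6 and 2161 higher in Scid.adh.2c2. Genes with peaks in both lists stood near the background, at 766 (14.0%) and 299 (5.48%) of 5459, and genes with no peak had 254 (7.72%) of 3289 higher in ILC2/b6 and 125 higher in Scid.adh.2c2. The median log2 difference over all genes kept, ILC2/b6 minus Scid.adh.2c2, was -0.32, against which the class medians were 0.03 for ILC2/b6-list-only and -0.70 for Scid.adh.2c2-list-only genes.

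Among the same 10777 genes with a mean of at least 1 RPKM, the balance of line-only peaks ordered the genes further. A gene silent in 1 line enters through its level in the other, and genes low in both are left out. Left out were 7 of the 10 genes with most Scid.adh.2c2-only peaks and 2 of the 10 with most ILC2/b6-only peaks. In the 263 genes with at least 6 more ILC2/b6-only than Scid.adh.2c2-only peaks, 57.4% were higher in ILC2/b6 and 0 in Scid.adh.2c2, and the median log2 difference was 2.63. In the 160 genes with at least 6 more Scid.adh.2c2-only peaks, 42.5% were higher in Scid.adh.2c2 and 3.12% in ILC2/b6, with a median of -1.72. With equal numbers (5348 genes) the shares were 7.91% for ILC2/b6 and 3.74% for Scid.adh.2c2. Genes at both ends were long, with median lengths of 78.9 and 70.7 kb against 13.7 kb at equal numbers, and the part of length was not tested. Shared peaks showed little of this: the median log2 difference was -0.35 with no shared peak and 0.24 with 7 or more.

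**Figure D3:**
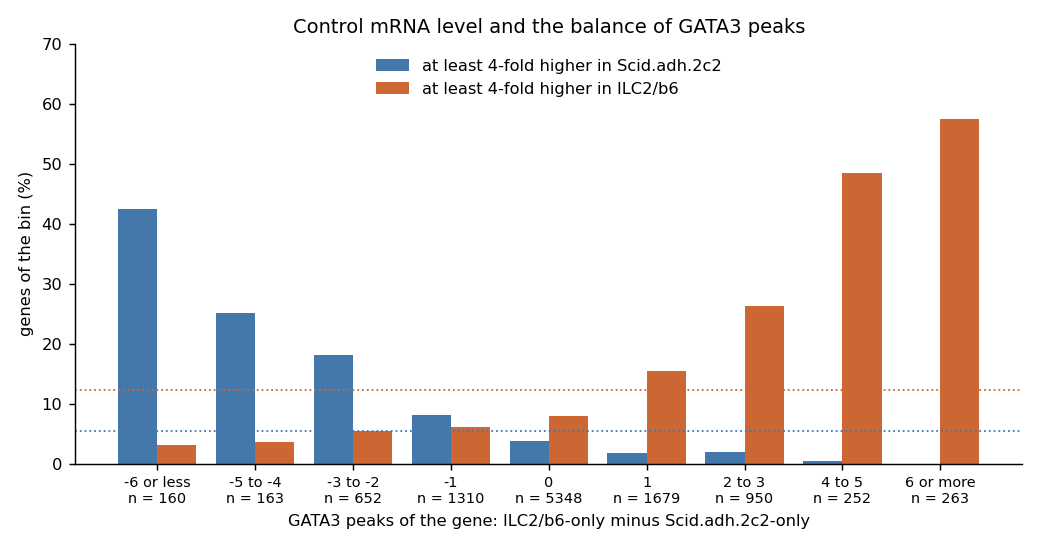
Genes grouped by ILC2/b6-only minus Scid.adh.2c2-only GATA3 peaks (x) against the percent at least 4-fold higher in each line (y, control RPKM); dotted lines are the shares over all 10777 genes, 12.4% for ILC2/b6 and 5.43% for Scid.adh.2c2. The share higher in ILC2/b6 reaches 57.4% on the right and the share higher in Scid.adh.2c2 reaches 42.5% on the left.

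Gata3 itself (chr2:9778705-9800227, mm9) was expressed in both lines, at 54.0 and 57.0 RPKM in Scid.adh.2c2 and 146.4 and 150.7 RPKM in ILC2/b6. The level was higher in both ILC2/b6 libraries and below the 4-fold mark, with a log2 difference of 1.41. Its start site carried a shared peak 0.814 kb upstream, with scores of 57.7 and 53.4. An enhancer of Gata3 used by T and NK cells is known downstream of the gene in the mouse. The stretch examined was set to reach further downstream than upstream, so a larger number of peaks there is no result in itself. From 196 kb upstream to 967 kb downstream of the start lay 55 shared, 28 Scid.adh.2c2-only and 39 ILC2/b6-only peaks. The strongest was shared, 762 kb downstream, with 604.6 in Scid.adh.2c2 and 559.7 in ILC2/b6. A peak 314 kb downstream scored 374.5 in Scid.adh.2c2 and 36.2 in ILC2/b6. Peaks 574 and 579 kb downstream scored 42.8 and 20.8 in Scid.adh.2c2 and 220.2 and 186.6 in ILC2/b6. A Runx3 peak of the same line overlapped 22 of the 39 ILC2/b6-only and 2 of the 28 Scid.adh.2c2-only peaks. Over all peaks of these classes the shares were 50.4% and 9.25%, so the counts at this locus lay near those of the lists. At 19 of the 55 shared peaks there was a Runx3 peak of either line. The nearest gene of many of them, 1700061F12Rik, had 55.0 and 58.4 RPKM in ILC2/b6 and 0.104 and 0.066 RPKM in Scid.adh.2c2.

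**Figure D4:**
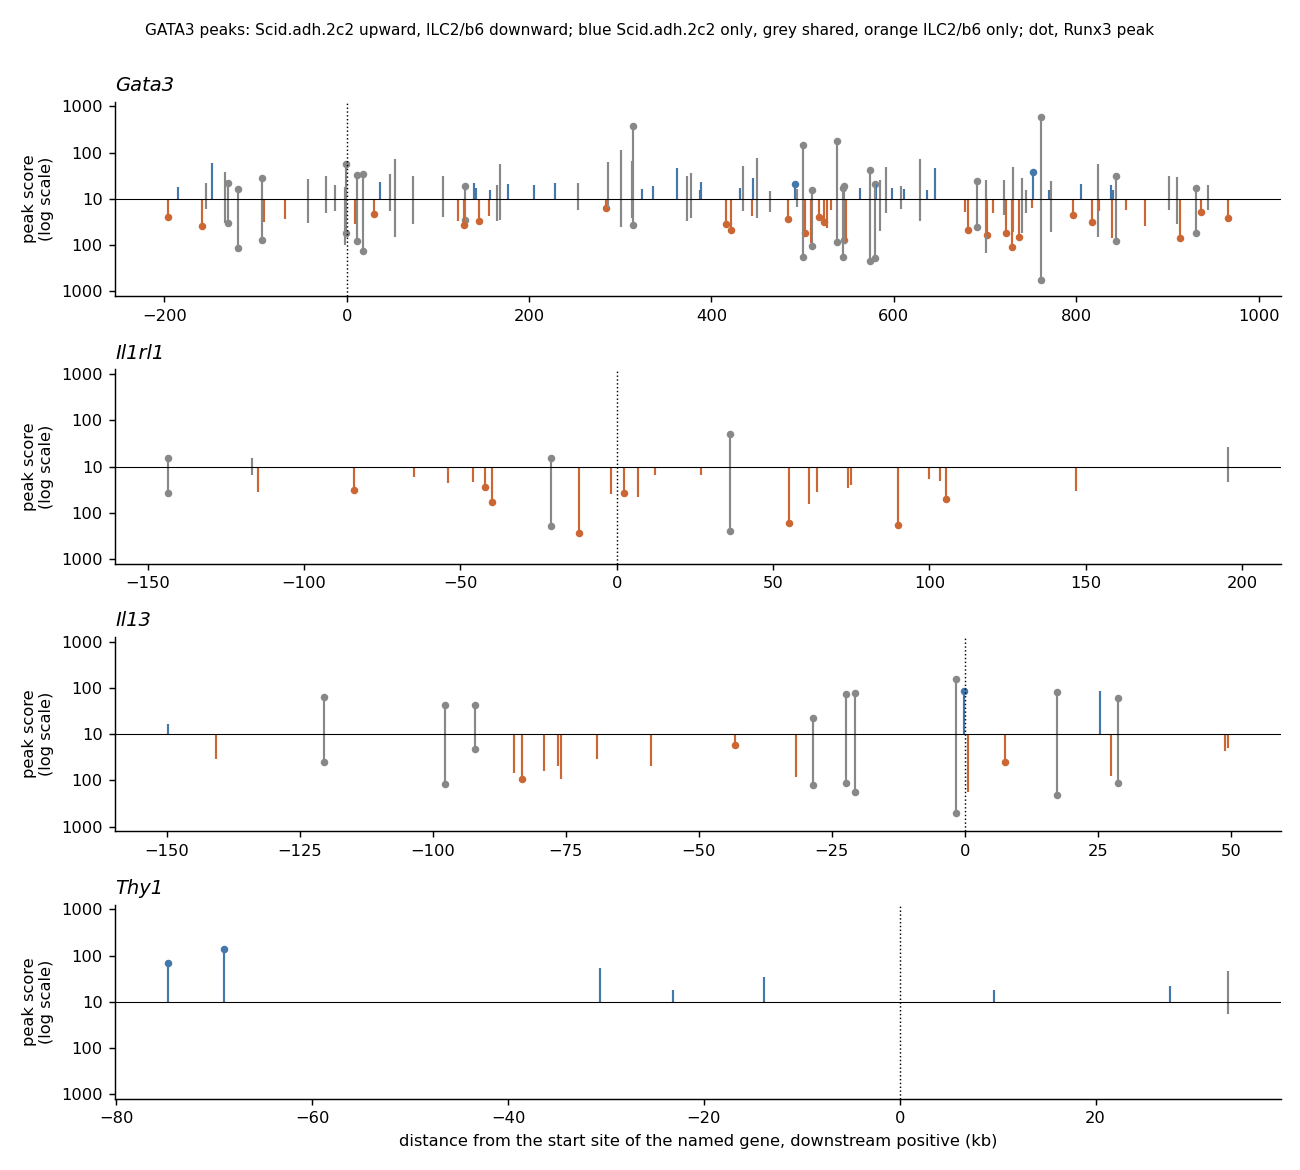
GATA3 peaks around Gata3, Il1rl1, Il13 and Thy1 by distance from the start of the gene (x, kb) with the peak score on a log axis, Scid.adh.2c2 upward and ILC2/b6 downward. Blue bars are Scid.adh.2c2 only, grey shared and orange ILC2/b6 only. Dots mark overlap with a Runx3 peak, of the same line at line-only peaks and of either line at shared peaks. Around Il1rl1 there are 23 ILC2/b6-only and 0 Scid.adh.2c2-only peaks, and around Thy1 7 Scid.adh.2c2-only and 0 ILC2/b6-only peaks.

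Of 20 GATA factors and partners, 16 had peaks in both lists, with 87 shared, 62 Scid.adh.2c2-only and 67 ILC2/b6-only peaks in all. Of the 14 with sufficient mRNA, 4 were higher in Scid.adh.2c2 and 2 in ILC2/b6. Over all 10777 genes kept, 5.43% were higher in Scid.adh.2c2 and 12.4% in ILC2/b6. The level counts of this and the following lists are to be read beside these shares, and the 2 higher in ILC2/b6 are near them. Runx2, a Runx factor of bone and lymphoid cells, had 13 ILC2/b6-only peaks and 1 Scid.adh.2c2-only peak, with 5.96 and 5.75 RPKM in ILC2/b6 and 0.004 and 0 RPKM in Scid.adh.2c2. Runx1 had 13 Scid.adh.2c2-only, 8 ILC2/b6-only and 17 shared peaks. Myb, a progenitor factor, had 6 Scid.adh.2c2-only peaks and 1 of ILC2/b6 only, with 76.0 and 82.0 RPKM against 4.87 and 4.62. Tcf12, an E protein, had 10 and 3, with 57.1 and 64.5 RPKM against 5.54 and 5.41. Zfpm1, the GATA cofactor FOG1, had 2 and 3 and was 24.7 and 24.5 against 8.71 and 7.91 RPKM. In each of Myb, Tcf12 and Runx1 both Scid.adh.2c2 libraries were above both ILC2/b6 libraries.

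T-lineage genes leaned to Scid.adh.2c2 sites. The 26 genes had 72 Scid.adh.2c2-only, 19 ILC2/b6-only and 35 shared peaks, and Themis, Rag2 and Thy1 held many of the Scid.adh.2c2-only ones. By gene, 11 had more Scid.adh.2c2-only peaks, 3 had more ILC2/b6-only peaks and 12 had equal numbers. Of the 19 with sufficient mRNA, 14 were higher in Scid.adh.2c2 and 0 in ILC2/b6. Thy1, a surface protein of T cells, had 8 peaks, all Scid.adh.2c2-only, and 99.1 and 102.5 RPKM against 0.046 and 0.082 in ILC2/b6. Its strongest peak, intergenic and upstream of the start, scored 139.5 and overlapped a Runx3 peak. Themis, an adaptor of thymocyte selection, had 18 Scid.adh.2c2-only, 1 shared and 0 ILC2/b6-only peaks, with 14.5 and 14.1 RPKM against 0.063 and 0.078. Rag2, the partner of Rag1, was the nearest gene of 14 Scid.adh.2c2-only and 2 ILC2/b6-only peaks and stayed at 0.763 and 0.655 RPKM in Scid.adh.2c2, while Rag1 had 64.1 and 75.7 RPKM there. Other T-cell genes were expressed in Scid.adh.2c2 with no assigned peak, among them Cd3g, a chain of the CD3 complex, Ptcra, which encodes a chain of the pre-TCR, and the adaptor gene Lat.

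Of 12 Notch receptors and response genes, 5 had more Scid.adh.2c2-only and 2 more ILC2/b6-only peaks, where over all 24475 genes 25.6% and 20.5% did. In this list 6 of 10 were higher in Scid.adh.2c2 and 1, Il2ra, the IL-2 receptor alpha chain, was higher in ILC2/b6. Hey1, a Notch-induced repressor, had 8 Scid.adh.2c2-only peaks and 0.094 and 0.079 RPKM. Notch3 had 2, with 13.8 and 17.7 RPKM against 0.024 and 0.025, and Notch1 and Hes5 had none.

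ILC2 genes leaned the other way. The 28 genes had 82 ILC2/b6-only, 50 Scid.adh.2c2-only and 60 shared peaks. By gene, 17 had more ILC2/b6-only peaks, 5 had more Scid.adh.2c2-only peaks and 6 had equal numbers. Of the 24 with sufficient mRNA, 17 were higher in ILC2/b6 and 0 in Scid.adh.2c2. Il1rl1, the IL-33 receptor ST2 (chr1:40496474-40522259, mm9), had 9 ILC2/b6-only and 1 shared peak and 305.8 and 338.7 RPKM against 0.156 and 0.049. Its strongest peak scored 279.8 and was absent from the Scid.adh.2c2 list. Areg, the growth factor amphiregulin, had 5 ILC2/b6-only peaks and 1 Scid.adh.2c2-only peak, with 476.3 and 469.9 RPKM against 0.170 and 0.024. Furin, a proprotein convertase, had 5 ILC2/b6-only and 2 shared peaks, with 750.0 and 734.7 RPKM against 6.51 and 6.44. Rora, a nuclear receptor needed for ILC2, went against the list: it had 20 Scid.adh.2c2-only and 2 ILC2/b6-only peaks, and its mRNA was 6.37 and 6.83 RPKM in Scid.adh.2c2 and 3.21 and 3.85 RPKM in ILC2/b6.

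The type 2 cytokine genes were occupied in both lines although they were hardly expressed in Scid.adh.2c2. Il13 had 2.21 and 0.816 RPKM in Scid.adh.2c2 and 4472 and 4406 RPKM in ILC2/b6, and 4 of its 8 sites were shared. A shared site 1.62 kb upstream of its start scored 155.3 in Scid.adh.2c2 and 514.4 in ILC2/b6. The promoter site whose window is printed above, 84 bp upstream, was in the Scid.adh.2c2 list only. The nearest ILC2/b6 peak began 352 bp away from its edge and was centred 570 bp downstream of the start, with a score of 176.8. With sites up to 500 bp apart counted as shared, the promoter site would be one of them. A shared peak with scores of 81.3 and 204.8 was annotated by the files to the start of a non-coding transcript of Il4, and it lies inside the Il4 gene as the RPKM tables place it.

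Of 17 transcription factors of innate lymphoid cells, all had peaks in both lists, with 98 ILC2/b6-only, 70 Scid.adh.2c2-only and 58 shared. By gene, 10 had more ILC2/b6-only and 7 more Scid.adh.2c2-only peaks. Id2 and Rora are also among the ILC2 genes above. Of the 14 with sufficient mRNA, 9 were higher in ILC2/b6 and 3 in Scid.adh.2c2. Maf, a bZIP factor, had 30 ILC2/b6-only, 4 Scid.adh.2c2-only and 9 shared peaks, with 44.4 and 43.9 RPKM against 0.025 and 0.024. Ahr, the aryl hydrocarbon receptor, had 11 and 0, with 5.17 and 5.71 RPKM against 0.009 and 0. Batf had 6 ILC2/b6-only and 1 shared peak, with 122.8 and 117.3 RPKM against 1.78 and 1.15. Tox, an HMG-box factor, had 17 Scid.adh.2c2-only and 9 ILC2/b6-only peaks, with 12.8 and 12.9 RPKM in Scid.adh.2c2 against 0.631 and 0.571.

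Cytokine receptors leaned to ILC2/b6 sites, with 73 ILC2/b6-only, 25 Scid.adh.2c2-only and 42 shared peaks over 25 genes, and 11 of 20 were higher in ILC2/b6 and 1 in Scid.adh.2c2. Tgfbr2, a TGF-beta receptor chain, had 14 ILC2/b6-only and 2 shared peaks and was listed at 0 in both Scid.adh.2c2 libraries and at 22.0 and 21.8 RPKM in ILC2/b6. Il18rap, an IL-18 receptor chain, had 9 peaks and Il4ra, the IL-4 receptor alpha chain, had 6, all ILC2/b6-only. Il4ra had 85.5 and 80.9 RPKM in ILC2/b6 and 0.032 and 0.011 in Scid.adh.2c2. Of the 25 receptors, 14 had more ILC2/b6-only and 7 more Scid.adh.2c2-only peaks. Il12rb2, an IL-12 receptor chain, was the receptor with the higher mRNA in Scid.adh.2c2, with 5 Scid.adh.2c2-only and 0 ILC2/b6-only peaks and 6.65 and 8.51 RPKM against 0.085 and 0.166. Il2rb, the IL-2 receptor beta chain, rested on 1 shared peak and 1 Scid.adh.2c2-only peak while its mRNA was 1.83 and 1.54 RPKM in Scid.adh.2c2 and 156.4 and 149.3 RPKM in ILC2/b6.

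In the remaining lists peaks and levels did not lean together. Progenitor and alternative-lineage regulators (19 genes) had 21 peaks of each class, with more Scid.adh.2c2-only peaks at 8 genes and more ILC2/b6-only peaks at 4. Of the 6 with sufficient mRNA, 5 were higher in ILC2/b6 and 0 in Scid.adh.2c2. Meis1, a homeobox factor of stem cells, had 7 ILC2/b6-only peaks, 3.25 and 3.01 RPKM in ILC2/b6 and 0 in both Scid.adh.2c2 libraries. NK and cytotoxic genes (15) had 17 shared, 14 Scid.adh.2c2-only and 8 ILC2/b6-only peaks. Of these genes, 6 had more Scid.adh.2c2-only and 5 more ILC2/b6-only peaks, and 3 of 6 were higher in ILC2/b6 and 0 in Scid.adh.2c2. Gzmb, granzyme B, had 2 ILC2/b6-only peaks with 4736 and 4910.2 RPKM against 5.01 and 2.07. Over all lists, 14 genes had at least 5 more ILC2/b6-only than Scid.adh.2c2-only peaks, and all 14 were higher in ILC2/b6. Of the 11 with at least 5 more Scid.adh.2c2-only peaks, 9 had sufficient mRNA and 8 of these were higher in Scid.adh.2c2, Rora being the exception. Over all genes kept the shares were lower. With 6 or more and with 4 to 5 more ILC2/b6-only peaks, 57.4% and 48.4% were higher in ILC2/b6. With 6 or more and with 4 to 5 more Scid.adh.2c2-only peaks, 42.5% and 25.2% were higher in Scid.adh.2c2. The lists were chosen with earlier results of these data known, so their direction is not independent evidence.

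**Figure D5:**
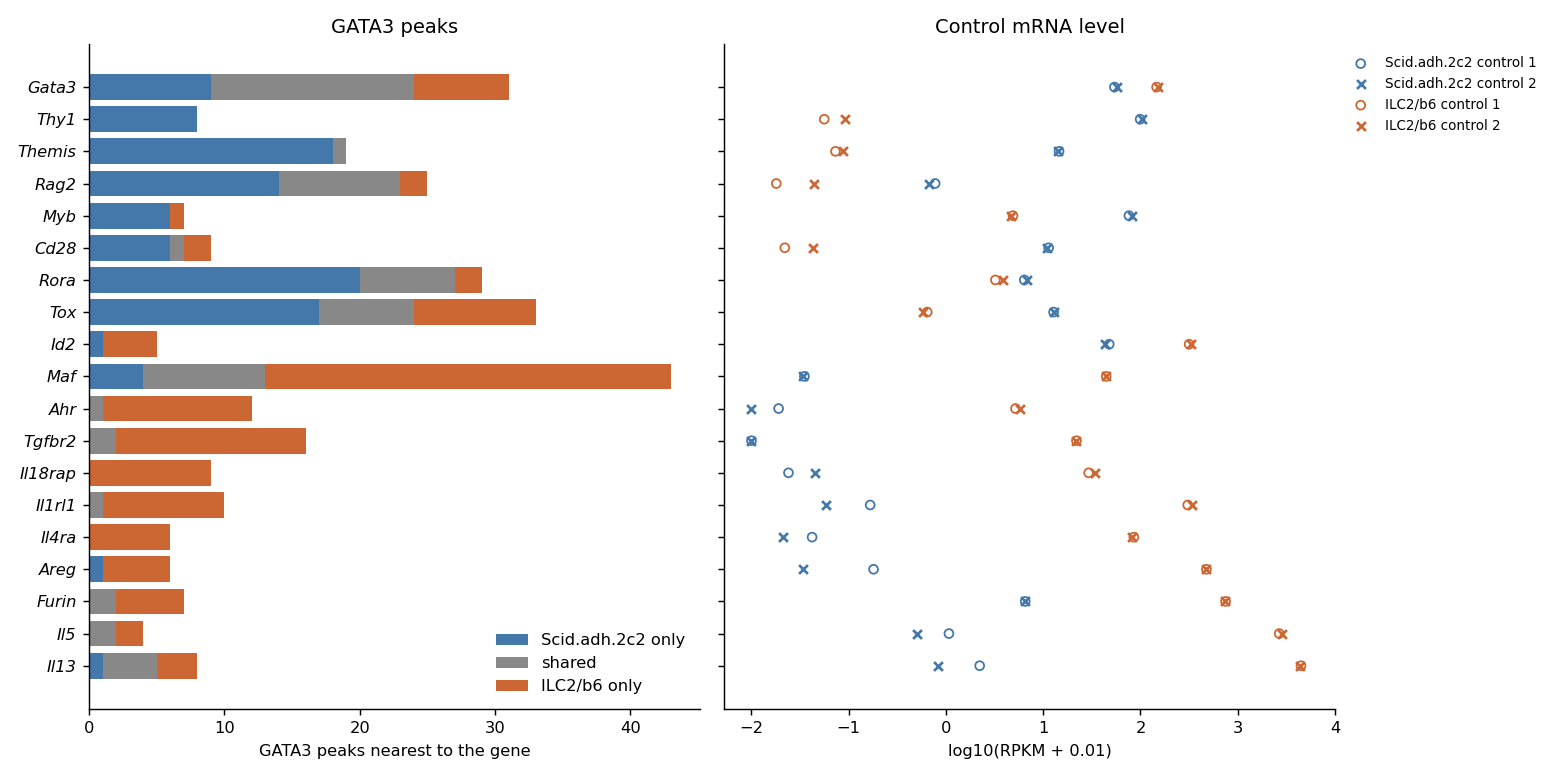
Left, GATA3 peaks whose nearest start site is that of the gene, by class (count); right, mRNA in the 2 control libraries of each line as log10(RPKM + 0.01), with 0 RPKM at -2. From Thy1 to Cd28 and at Tox the Scid.adh.2c2 libraries lie to the right, from Id2 downward the ILC2/b6 libraries do, and Rora has 20 Scid.adh.2c2-only peaks with levels of 6.37 and 6.83 against 3.21 and 3.85 RPKM.

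Peaks and levels also went apart. Among genes with peaks in the Scid.adh.2c2 list only, Gnas, the stimulatory G protein alpha subunit, had 1 peak and 0.540 and 0.480 RPKM in Scid.adh.2c2 against 403.8 and 405.1 in ILC2/b6, with the doubt about its listed level given above. Mt2, a metallothionein, and Asns, asparagine synthetase, also had peaks in that list only and were higher in ILC2/b6, at 175.6 and 152.2 and at 101.0 and 96.4 RPKM, against at most 0.084 RPKM. In the opposite direction Ptgr1, a prostaglandin reductase, had 1 ILC2/b6 peak and 21.2 and 21.7 RPKM in Scid.adh.2c2 against 0.550 and 0.666. Ifit1, an interferon-induced gene with 1 ILC2/b6 peak, had 4.98 and 5.90 RPKM in Scid.adh.2c2 and 0.020 and 0.065 RPKM in ILC2/b6. Among genes with peaks in 1 list only, the largest level differences in the direction of the peaks were those of Thy1, with a log2 difference of -7.49, and of Gzmb, with 10.32.

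Last, the response to the guide against Bcl11b was counted by GATA3 gene class, each line apart, with limma on log2(RPKM + 0.5) and Benjamini-Hochberg adjustment. The targeted mRNA did not pass the test, at 47.0 and 49.5 RPKM in Scid.adh.2c2 controls against 47.1 and 46.8 RPKM with the guide (log2 -0.04), and at 6.85 and 6.33 against 7.04 and 7.24 RPKM in ILC2/b6. In Scid.adh.2c2 it was called lower with values centred on library medians (-0.17, limma adjusted p = 0.0086) and with quantile normalization (-0.11, limma adjusted p = 0.046). Cutting by Cas9 can leave transcript levels as they are, so these values neither check the labels nor measure the protein. In Scid.adh.2c2, 5908 of 10221 genes were called (57.8%), and the shares ran from 55.6% of genes with no GATA3 peak to 59.2% of genes with peaks in the Scid.adh.2c2 list only. By direction, among Scid.adh.2c2-list-only genes 29.8% of genes tested rose and 29.4% fell, and among ILC2/b6-list-only genes 58.9% were called and 18.9% fell, beside 35.1% that rose and 22.7% that fell over all genes. In ILC2/b6, 1530 of 10526 genes were called (14.5%: 8.32% rose and 6.21% fell), from 10.9% of genes with no peak to 17.7% of ILC2/b6-list-only genes. Without guide replicate 2 the totals were 3700 and 779, and without guide replicate 1 they were 3773 and 933. The labels do not say whether the libraries are separate cultures, so these p-values measure the spread between libraries, which may be technical.

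Gata3 mRNA in Scid.adh.2c2 went from 54.0 and 57.0 to 63.1 and 66.2 RPKM with the guide, both guide libraries above both controls. Its log2 fold change was 0.22 ± 0.05 (SE, limma adjusted p = 0.0051), and with values centred on library medians, which removes a shift of 0.13 between the groups, it was 0.09 and no longer called, as was the 0.19 without guide replicate 2. In ILC2/b6 it was 146.4 and 150.7 against 150.6 and 162.7 RPKM (0.08 ± 0.04, limma adjusted p = 0.31). The difference between lines was -0.14 ± 0.07 (limma interaction, adjusted p = 0.12) and did not pass. Runx3 in Scid.adh.2c2 rose from 3.07 and 3.28 to 18.0 and 18.2 RPKM (2.34 ± 0.07, limma adjusted p = 2.58e-07). In ILC2/b6 it was 46.5 and 42.9 against 43.7 and 43.7 RPKM.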

How the data were processed

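ChIP-seq for GATA3, Bcl11b, Runx1 and Runx3 and RNA-seq were run on 2 lines, read as single 50-nt reads per the labels' protocols. The authors deposited 1 HOMER-annotated peak list per factor and line, with a peak score, an annotation and a distance to the nearest start per the file headers, so the replicate libraries cannot be compared. The authors deposited 1 table of RPKM values per line. Bowtie 1.1.1, HOMER, Trimmomatic 033, STAR 2.4.0, RSEM 1.2.25 and edgeR 3.6.8, and the builds mm9 and NCBIM37, are named per the submitters' processing notes, with roles not given in the sources used here, nor which input served which ChIP. Low RPKM values were whole multiples of 1 read within 0.1 read for all 1166 to 1470 values examined per library.

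Overlaps (at least 1 bp) and Wilson intervals were computed in Python 3.11.15 with pandas 2.3.3 and statsmodels 0.14.6. Levels used log2(RPKM + 0.5), with genes of mean RPKM at least 1 kept. The guide comparisons used limma 3.58.1 in R 4.3.3, each line apart, at an adjusted p threshold of 0.05. Genes with at least 1 RPKM in 2 libraries of the line were tested. For the difference between lines, 1 fit of all 8 libraries was used. The fit of each line apart was also tested on simulated data, and the fit of all 8 libraries was not. Levels between lines got no test, since the tables were made separately. Alternatives were other overlaps, score and level thresholds, pseudocounts, filters, scalings, a replicate block and leaving out each library. Members and gene lists were chosen with earlier results of these data known. Named genes are list members with the largest difference in peak number or with peaks in 1 line only, the 10 genes with most peaks per class, the nearest genes of the 5 highest peaks per class and the largest level differences among genes with peaks in 1 line only. Other genes, among them Myc, Eef1a1, Rag1, Il4, Il2rb and those without peaks, were chosen after their values were seen.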

Additional observations from a re-analysis of the deposited data

Results flagged for a closer look

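The effect of the guide against Bcl11b on Runx3 mRNA differed between the lines, by a test of the difference itself. The log2 effect in ILC2/b6 minus that in Scid.adh.2c2 was -2.371 ± 0.07 (SE, limma interaction over 8 libraries, adjusted p = 1.32e-07), and 45.1% of 11600 genes passed the same test. In Scid.adh.2c2 both guide libraries (18.0 and 18.2 RPKM) lay above both controls (3.07 and 3.28 RPKM). In ILC2/b6 the guide libraries (43.7 and 43.7 RPKM) lay between the controls (46.5 and 42.9 RPKM).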

How the results depend on the processing

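Each line is 1 culture line with 1 peak list per factor, so peak shares have counting error only, and depth of the ChIP libraries is unknown. No called value changed sign under the alternatives run. The choices added after seeing the data were leaving out TAGA or TCTA repeats, leaving out chromosomes 1 and 15, and the refits of the difference between lines. With the upper 50.0% of each list by score, there were 7447 shared, 11039 Scid.adh.2c2-only and 9407 ILC2/b6-only peaks, with 451 shared and 344 ILC2/b6-only at promoters. The overlaps with Bcl11b, Runx1 and Runx3 were then 803, 637 and 891 at shared sites in Scid.adh.2c2, 1093, 1246 and 1807 at shared sites in ILC2/b6, 771, 713 and 978 at Scid.adh.2c2-only and 2377, 3336 and 3986 at ILC2/b6-only sites. Genes with no peak and a higher level in ILC2/b6 were then 431, and genes with peaks in both lists and a higher level in Scid.adh.2c2 were 190. ILC2/b6-list-only genes higher in Scid.adh.2c2 numbered 34 with a pseudocount of 0.1 and 13 with 1, and genes with no peak higher in Scid.adh.2c2 numbered 78 with a pseudocount of 1. At a 2-fold difference, 2017 genes were higher in ILC2/b6 and 2161 in Scid.adh.2c2, among them 443 and 623 with no peak, 80 and 311 Scid.adh.2c2-list-only and 1153 and 1096 with peaks in both lists, and 131 ILC2/b6-list-only genes were higher in Scid.adh.2c2. With no filter on low values the guide called 615 genes in ILC2/b6 (134 with no peak, 38 Scid.adh.2c2-list-only, 88 ILC2/b6-list-only and 355 with peaks in both). The cause of these changes was not tested beyond the smaller lists and the lower threshold themselves.

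With the replicate block, the guide called 582 genes with no peak and 2258 in all in ILC2/b6, and 5921 in all in Scid.adh.2c2. The deviations of same-numbered libraries correlated at 0.037 in Scid.adh.2c2 and 0.106 in ILC2/b6. With only 2 pairs per line, this cannot show whether same-numbered libraries belong together. Leaving out 1 library at a time, guide calls ran from 3700 to 6803 in Scid.adh.2c2 (1055 to 2074 with no peak, 349 to 584 Scid.adh.2c2-list-only, 360 to 677 ILC2/b6-list-only, 1935 to 3471 both) and from 779 to 2199 in ILC2/b6 (180 to 575, 42 to 120, 110 to 289 and 447 to 1215). The lowest counts over all genes came without guide replicate 2 of each line, and guide replicate 1 gave 3773 and 933. In Scid.adh.2c2, Bcl11b (-0.17 and -0.11) and Runx1 (-0.18 and -0.17) were called lower with median-centred and quantile-normalized values.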
